A study of Homo sapiens with 8 samples.

Results

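The mitochondrial ribosomal protein genes (MRP genes below) are the nuclear genes whose symbols read MRPL or MRPS followed by a number and an optional letter. They were taken by that name rule from the protein-coding genes of GENCODE release 29, with no measured value used. Of the 58735 genes in the deposited table, 78 were MRP genes, 49 with MRPL and 29 with MRPS names, spread over 21 chromosomes. Positions below are those of the whole gene in that release, on GRCh38. All 78 were among the 15647 genes with enough reads to be tested.

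The mitochondrial ribosome translates the mRNAs of mitochondrial DNA, which code for subunits of the respiratory chain and of ATP synthase. Its rRNAs are transcribed in the organelle, while its proteins are encoded in the nucleus, made in the cytosol and imported. Some of these proteins have bacterial counterparts and others occur only in mitochondrial ribosomes. The letters L and S stand for the large and the small subunit, with known exceptions: MRPS18A and MRPS30 lie in the large subunit, and MRPS36 is now known as a protein of the 2-oxoglutarate dehydrogenase complex. In the lens, the epithelium is the layer that keeps its mitochondria, whereas maturing fibre cells break theirs down.

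RNA was measured in SRA01/04, a line of human lens epithelial cells immortalised with large T antigen. The shControl group was 4 libraries of cells with a control short hairpin, and the shSmurf1 group was 4 libraries of cells with a hairpin against SMURF1, a ubiquitin ligase of the TGF-β and BMP pathways. Cells of both groups had received 20 ng/ml of TGF-β2, known for inducing fibrosis of the lens epithelium, over 48 h, and none was measured without it. The labels name 1 hairpin against SMURF1 and no rescue, so an effect of lower SMURF1 and any other difference between the cell populations cannot be told apart. They call the libraries biological replicates without naming separate cultures, and p-values here measure the spread between these libraries.

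Library totals lay between 14688651 and 17030394 counts. SMURF1 stood at 85.8 to 93.3 CPM (counts scaled to the size of the library) in shControl and at 50.4 to 51.4 CPM in shSmurf1, a log2 fold change of −0.80 ± 0.055 (SE, n = 4 per group; edgeR adjusted p = 2.86e-09). The library shSmurf1 replicate 3 stood apart from the other shSmurf1 libraries on the second principal component, which held 11.6% of the variance, at 14.9 against −6.66 to −3.92. Results that rest on it are given with and without it. Of 10 lens epithelial markers PAX6 (33.3 and 34.0 CPM in shControl and shSmurf1) and SIX3 (16.2 and 12.6 CPM, called lower at an edgeR adjusted p of 0.0106) had enough reads to test, and the other 8 averaged under 1 CPM, crystallin gene CRYAA and transcription factor gene FOXE3 among them. Of 10 immune markers 9 averaged under 1 CPM and 5 had no count. The summed level of the 10 was 6.27 to 8.59 CPM in shControl and 11.7 to 14.5 CPM in shSmurf1, most of it CD14. Of 10 endothelial markers 6 averaged under 1 CPM, the sum was 41.9 to 43.8 CPM in shControl and 41.6 to 58.2 CPM in shSmurf1, and ESAM (log2 fold change 0.98) and TIE1 (0.27) were called higher. Of 10 melanocyte and pigment epithelium markers 7 averaged under 1 CPM, the sum was 27.4 to 28.6 CPM in shControl and 21.4 to 24.0 CPM in shSmurf1, and MITF (−0.40) was called lower. The part of these markers in the results was not tested. In bulk RNA, fewer cells of a type and less RNA per cell cannot be told apart.

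Promoters of MRP genes are known for binding sites of ETS factors such as GABPA, of YY1 and of NRF1, the nuclear respiratory factor. RefSeq promoter sequences on GRCh38.p14, from 250 bases before to 50 after each annotated start, were found for 69 of the 78 genes. They were searched on both strands for CCGGAAG (ETS), AAGATGGC (YY1) and GCATGCGC (NRF1). The ETS letters stood in 30 of the 69 (43.5%), against 12.2% of 27305 genes with a promoter in the table. The YY1 letters stood in 21 (30.4%), against 3.52%, and the NRF1 letters in 6 (8.70%), against 3.68%. At least 1 of the 3 words stood in 44 (63.8%), against 17.6%. A match describes the letters in this window and is no evidence of binding. The 27305 genes were not limited to the 15647 tested here, so the shares are not matched for expression. The YY1 word holds ATG, the letters of a start codon, and the part of coding starts in its matches was not tested. The 10 windows below come from the promoters of MRP genes whose levels differed between the groups, and show which words those genes carry. Each is 30 bases of the gene's own strand, 5′ to 3′, with the matched word in capitals. A match on the opposite strand reads CTTCCGG, GCCATCTT or GCGCATGC.
MRPS18A, ETS word, chr6:43687804-43687833, minus strand: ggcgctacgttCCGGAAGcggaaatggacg
MRPS18A, YY1 word, chr6:43687764-43687793, minus strand: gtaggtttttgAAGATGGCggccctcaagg
MRPL58, ETS word, chr17:75012651-75012680, plus strand: ggaagcgcccgCCGGAAGcagtcgcaagac
MRPL58, second ETS word, chr17:75012466-75012495, plus strand: atcggggcactCTTCCGGtagcagctcgct
MRPS21, ETS word, chr1:150293839-150293868, plus strand: cgtaatttccgCTTCCGGtagtgagaaccc
MRPS33, ETS word, chr7:141014934-141014963, minus strand: agagggcgggcCTTCCGGgacgagggcgcg
MRPL32, YY1 word, chr7:42932143-42932172, plus strand: acccgcgctccGCCATCTTtacccgaagag
MRPL32, NRF1 word, chr7:42932326-42932355, plus strand: tctgtgcctgtGCGCATGCtgaaagcaggg
MRPS7, YY1 word, chr17:75261887-75261916, plus strand: cgtggccagccAAGATGGCtgcccccgcag
MRPL49, YY1 word, chr11:65122333-65122362, plus strand: cgtagcaggtaAAGATGGCagctaccatgt

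The YY1 words of MRPS18A, MRPS7 and MRPL49 began 9, 19 and 23 bases after a RefSeq start. The ETS words of MRPS21 and MRPS18A began 11 and 31 bases before one, and those of MRPL58 began 8 and 193 bases before one. MRPL11, MRPL12, MRPL37 and MRPS17, which also differed between the groups, held none of the 3 words in these windows. The median log2 fold change was 0.08 over the 44 genes with a word and 0.06 over the other matched genes.

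Most MRP genes did not pass the test between the groups. A gene was called at an adjusted p under 0.05 in edgeR's quasi-likelihood test with Benjamini-Hochberg adjustment over all genes tested. By that rule 7 MRP genes rose in shSmurf1 (MRPS17, MRPS18A, MRPL32, MRPL12, MRPL58, MRPS7 and MRPS21), 4 fell (MRPS33, MRPL49, MRPL37 and MRPL11) and 67 were not called. The 11 called genes were 14.1% of the 78, beside 22.5% of all genes tested. Among all genes 10.3% were called higher and 12.2% lower. At an unadjusted p under 0.05, 17 MRP genes were higher (21.8%, beside 16.2% of all genes) and 4 lower (5.13%, beside 17.4%). Once the change of the genes around each gene on the chromosome was removed, 4 of the 11 remained called (MRPS17, MRPS18A, MRPL49 and MRPL11), with values given further on. How large a share of the calls over all genes remained was not worked out.

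Changes of MRP genes were small. The median log2 fold change, shSmurf1 over shControl, was 0.06 over the 78 MRP genes and 0.01 over all genes tested, and 48 of the 78 (61.5%) lay above 0, beside 51.4% of all genes. The median size of the change, regardless of sign, was 0.109 for MRP genes and 0.154 for all genes. The median SE was 0.0803 for MRP genes and 0.0929 for all genes, and the part of this noise in the difference was not tested. The lowest and highest log2 fold changes were −0.38 (MRPS33, called) and 0.85 (MRPS24, not called). Of the 67 genes that were not called, 63 had a 95% confidence interval within a 1.5-fold change in either direction, and 51 had one within a 1.25-fold change. The 4 with intervals past a 1.5-fold change were MRPL38, MRPL46, MRPL53 and MRPS24, which with MRPS28 had the fewest reads of the family (12 to 117 counts per library). The CPM values of the groups did not overlap for 15 MRP genes (19.2%), the 11 called genes with MRPL48, MRPS24, MRPS26 and MRPS5, and the groups did not overlap for 23.7% of all genes tested.

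**Figure D1:**
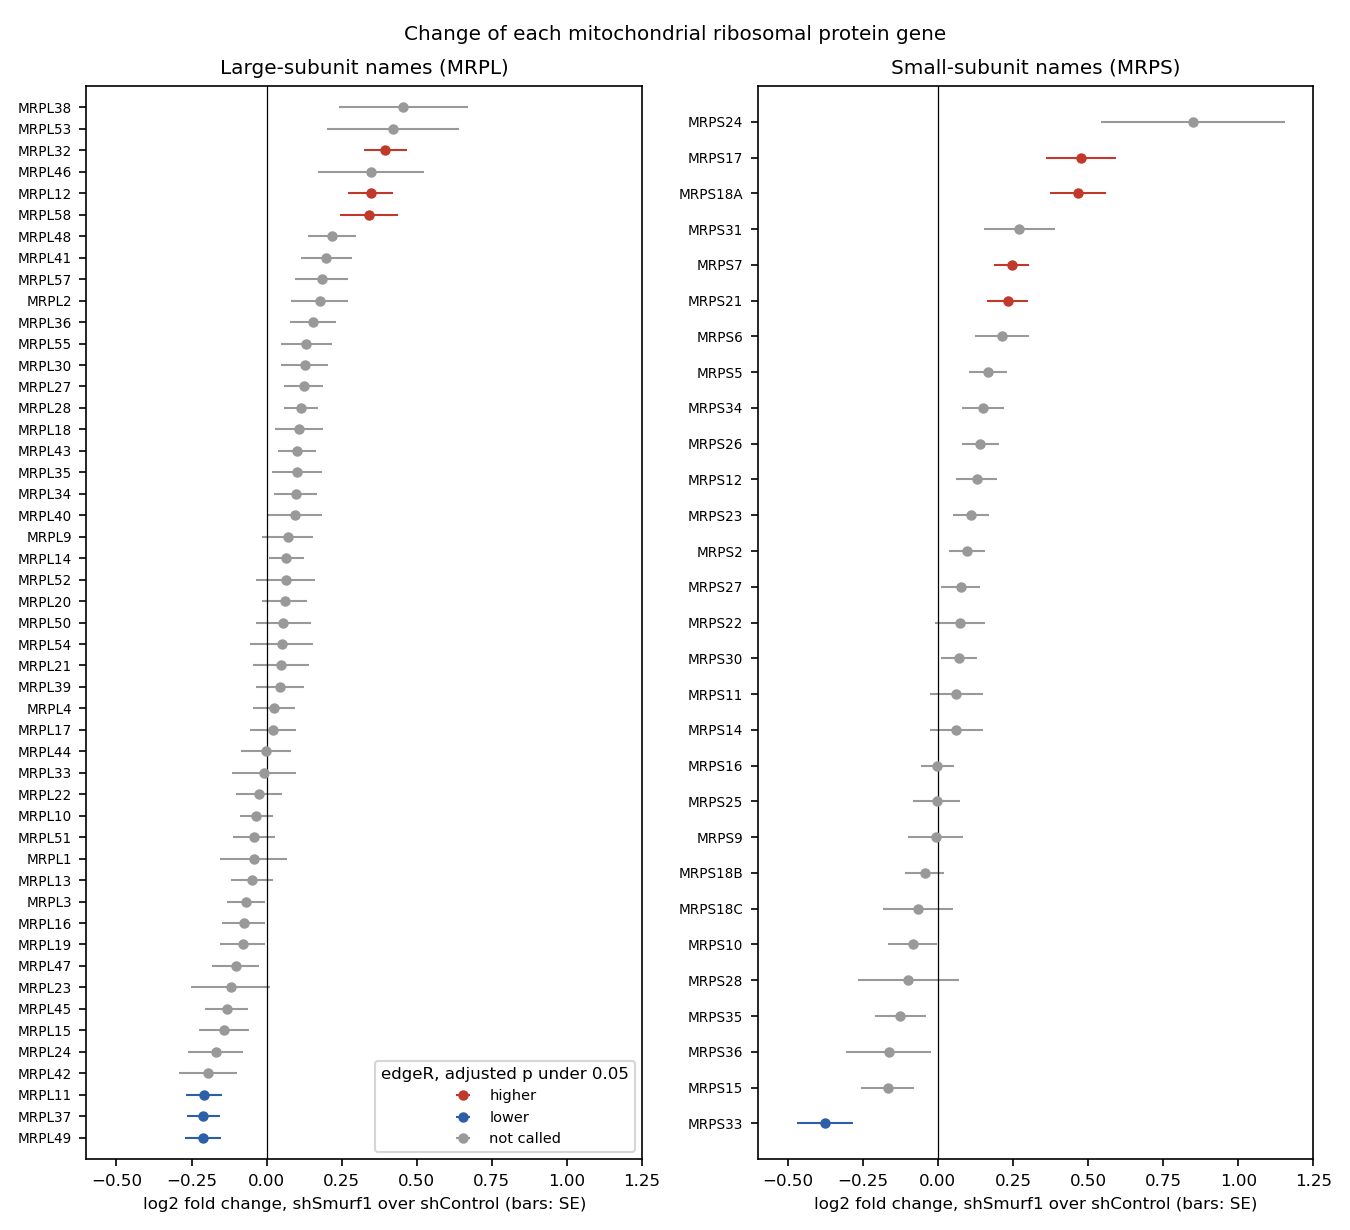
Log2 fold change of each of the 78 MRP genes, shSmurf1 over shControl, with bars of 1 SE from edgeR; MRPL genes stand on the left and MRPS genes on the right, ordered by change. Red marks the 7 genes called higher and blue the 4 called lower, and most of the grey points lie within 0.2 of 0.

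The role lists used here were taken as given, and the group sizes, shares and medians below hold for these lists only. They hold 29 MRP genes as large-subunit proteins with bacterial counterparts. Among these 29 genes 2 rose, 1 fell and 26 were not called, with a median log2 fold change of 0.05. The called genes were 10.3% of this group, beside 22.5% of all genes. MRPL32 (ENSG00000106591, chr7:42932200-42948958, plus strand) codes for a protein that an inner-membrane protease cleaves before it joins the ribosome. MRPL32 was at 37.5, 31.4, 34.2 and 34.8 CPM in shControl replicates 1 to 4 and 43.4, 44.0, 48.7 and 45.5 CPM in shSmurf1 replicates 1 to 4. The groups were apart, since the lowest shSmurf1 library lay above the highest shControl library, and the log2 fold change was 0.40 ± 0.0711 (SE; edgeR adjusted p = 0.000391). MRPL12 (ENSG00000262814, chr17:81703357-81707526, plus strand), a protein of the stalk that also binds the mitochondrial RNA polymerase, was at 24.4, 28.8, 27.9 and 27.0 CPM in shControl replicates 1 to 4 and 35.7, 33.7, 32.7 and 35.3 CPM in shSmurf1 replicates 1 to 4. Every shSmurf1 library was higher than every shControl library, with a log2 fold change of 0.35 ± 0.0749 (edgeR adjusted p = 0.00205). MRPL11 (ENSG00000174547, chr11:66435075-66466738, minus strand), which binds rRNA at the base of that stalk, moved the other way. It was at 71.1, 62.7, 67.4 and 65.5 CPM in shControl replicates 1 to 4 and 61.2, 57.9, 55.2 and 56.6 CPM in shSmurf1 replicates 1 to 4. The groups came close without overlapping, and the log2 fold change was −0.21 ± 0.0603 (edgeR adjusted p = 0.0165). Without shControl replicate 1, the highest library, MRPL11 was not called (edgeR adjusted p = 0.0744).

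Of the 22 large-subunit proteins listed as mitochondria-specific, 2 rose, 2 fell and 18 were not called. The 4 called were 18.2%, beside 22.5% of all genes, and the median log2 fold change was 0.07. MRPS18A (ENSG00000096080, chr6:43671303-43687791, minus strand) codes for a large-subunit protein despite its name. It was at 16.1, 15.4, 16.9 and 14.4 CPM in shControl replicates 1 to 4 and 21.0, 21.2, 19.7 and 24.8 CPM in shSmurf1 replicates 1 to 4. All 4 shSmurf1 libraries lay above shControl, with replicate 4 the highest, and the log2 fold change was 0.47 ± 0.0933 (edgeR adjusted p = 0.00109). Its paralogs in the small subunit were not called: MRPS18B was at −0.04 ± 0.0637 (edgeR adjusted p = 0.675) and MRPS18C at −0.07 ± 0.116 (edgeR adjusted p = 0.742). The difference between these paralogs was not tested. Exons of MRPS18A share 47.0% of their bases with RSPH9, a ciliary gene on the opposite strand, which averaged 1.68 CPM with a log2 fold change of 0.68 (edgeR adjusted p = 0.0542). The protocol describes no step that marks the strand, so reads in shared exon bases cannot be assigned to 1 gene.

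MRPL58 (ENSG00000167862, chr17:75012670-75021261, plus strand), a peptidyl-tRNA hydrolase that became part of the large subunit and frees stalled ribosomes, was at 23.7, 18.7, 18.9 and 22.8 CPM in shControl replicates 1 to 4 and 29.3, 24.5, 28.6 and 24.2 CPM in shSmurf1 replicates 1 to 4. The groups did not overlap, although the nearest libraries differed by less than the spread within either group. The log2 fold change was 0.34 ± 0.0973 (edgeR adjusted p = 0.0152). MRPL58 was not called without shControl replicate 2 or 3 or without shSmurf1 replicate 1 (edgeR adjusted p = 0.0672, 0.0623 and 0.0632). MRPL37 (ENSG00000116221, chr1:54184041-54225464, plus strand) codes for a protein with no bacterial counterpart. It was at 164, 153, 145 and 166 CPM in shControl replicates 1 to 4 and 138, 134, 129 and 142 CPM in shSmurf1 replicates 1 to 4. All shSmurf1 libraries lay below all shControl libraries, with a log2 fold change of −0.21 ± 0.0553 (edgeR adjusted p = 0.00897). MRPL49 (ENSG00000149792, chr11:65122183-65127371, plus strand), a further mitochondria-specific protein, was at 76.3, 76.2, 80.8 and 81.9 CPM in shControl replicates 1 to 4 and 74.0, 64.9, 65.8 and 67.5 CPM in shSmurf1 replicates 1 to 4. The highest shSmurf1 library, replicate 1, lay just under the lowest shControl library, and the log2 fold change was −0.21 ± 0.0588 (edgeR adjusted p = 0.0131). The call of MRPL49 was lost without shControl replicate 4 or shSmurf1 replicate 2 (edgeR adjusted p = 0.0535 and 0.0502). MRPL49 shares 20.7% of its exon bases with SYVN1 and FAU on the opposite strand, both of which fell (log2 fold changes of −0.35 and −0.44).

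Listed as small-subunit proteins with bacterial counterparts were 15 of the MRP genes. Among them MRPS17, MRPS7 and MRPS21 rose (20.0%, beside 22.5% of all genes called), and the other 12 were not called. The median log2 fold change was 0.10. No gene of this group was called lower by edgeR, DESeq2 or limma-voom, and 0 were lower at an unadjusted p under 0.05. MRPS17 (ENSG00000239789, chr7:55951819-55956501, plus strand), an rRNA-binding protein, was at 7.04, 7.68, 8.65 and 7.76 CPM in shControl replicates 1 to 4 and 10.6, 9.94, 10.8 and 11.9 CPM in shSmurf1 replicates 1 to 4. The shSmurf1 libraries all lay above shControl, and the log2 fold change was 0.48 ± 0.116 (edgeR adjusted p = 0.00515). MRPS17 shares 27.0% of its exon bases with other gene models on its own strand, among them NIPSNAP2, which averaged 95.7 CPM with a log2 fold change of 0.20 (edgeR adjusted p = 0.0319).

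MRPS7 (ENSG00000125445, chr17:75261674-75266373, plus strand), a protein of the head of the small subunit that binds its rRNA, was at 66.8, 62.4, 63.2 and 68.4 CPM in shControl replicates 1 to 4 and 79.3, 73.9, 75.2 and 80.7 CPM in shSmurf1 replicates 1 to 4. The groups did not overlap, and the log2 fold change was 0.25 ± 0.0573 (edgeR adjusted p = 0.00388). MRPS21 (ENSG00000266472, chr1:150293720-150308979, plus strand), the counterpart of a bacterial small-subunit protein, was at 42.1, 41.3, 39.5 and 42.1 CPM in shControl replicates 1 to 4 and 50.3, 44.2, 52.6 and 46.8 CPM in shSmurf1 replicates 1 to 4. Its shControl libraries lay close together and the shSmurf1 libraries spread more widely above them, with a log2 fold change of 0.23 ± 0.0680 (edgeR adjusted p = 0.0181). MRPS21 had the called p nearest the threshold and was not called without shControl replicate 3 or shSmurf1 replicate 1 (edgeR adjusted p = 0.0639 and 0.0607). On the other side of the threshold stood MRPS24, which codes for the counterpart of bacterial S3. It had 12, 14, 18 and 19 counts in shControl replicates 1 to 4 and 20, 23, 41 and 28 counts in shSmurf1 replicates 1 to 4. The groups did not overlap, with a log2 fold change of 0.85 ± 0.306 (edgeR adjusted p = 0.0527), and shSmurf1 replicate 3 was the highest library. Without that library MRPS24 was at 0.59 (edgeR adjusted p = 0.175), and at 0.53 (0.249) when the trend of log2 CPM with GC content was removed from each library too (the GC trend below). MRPS24 was called without shSmurf1 replicate 1 (edgeR adjusted p = 0.0430) and not on leaving out any other library.

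The median log2 fold change was 0.07 over the 11 small-subunit proteins listed as mitochondria-specific. Of these 10 were not called and 1 fell (9.09%, beside 22.5% of all genes called). None was called higher by edgeR, DESeq2 or limma-voom, although 3 were higher at an unadjusted p under 0.05. MRPS33 (ENSG00000090263, chr7:141002610-141015228, minus strand) had the largest fall of the family. It was at 26.9, 21.0, 20.9 and 22.5 CPM in shControl replicates 1 to 4 and 17.9, 16.6, 18.5 and 17.5 CPM in shSmurf1 replicates 1 to 4. The shSmurf1 libraries lay close together under all shControl libraries, of which replicate 1 was the highest, and the log2 fold change was −0.38 ± 0.0936 (edgeR adjusted p = 0.00616). MRPS34, a protein needed for small-subunit stability, was at 62.0, 50.9, 61.1 and 61.5 CPM in shControl replicates 1 to 4 and 66.6, 64.3, 60.5 and 70.3 CPM in shSmurf1 replicates 1 to 4. The groups overlapped and MRPS34 was not called (log2 fold change 0.15 ± 0.0701; edgeR adjusted p = 0.135), but it was without shSmurf1 replicate 3 (0.19; edgeR adjusted p = 0.0162), and not when the GC trend was removed as well (−0.0031; 0.977). MRPS36, which is in none of the 4 role groups, was at −0.16 and was not called (edgeR adjusted p = 0.449).

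**Figure D2:**
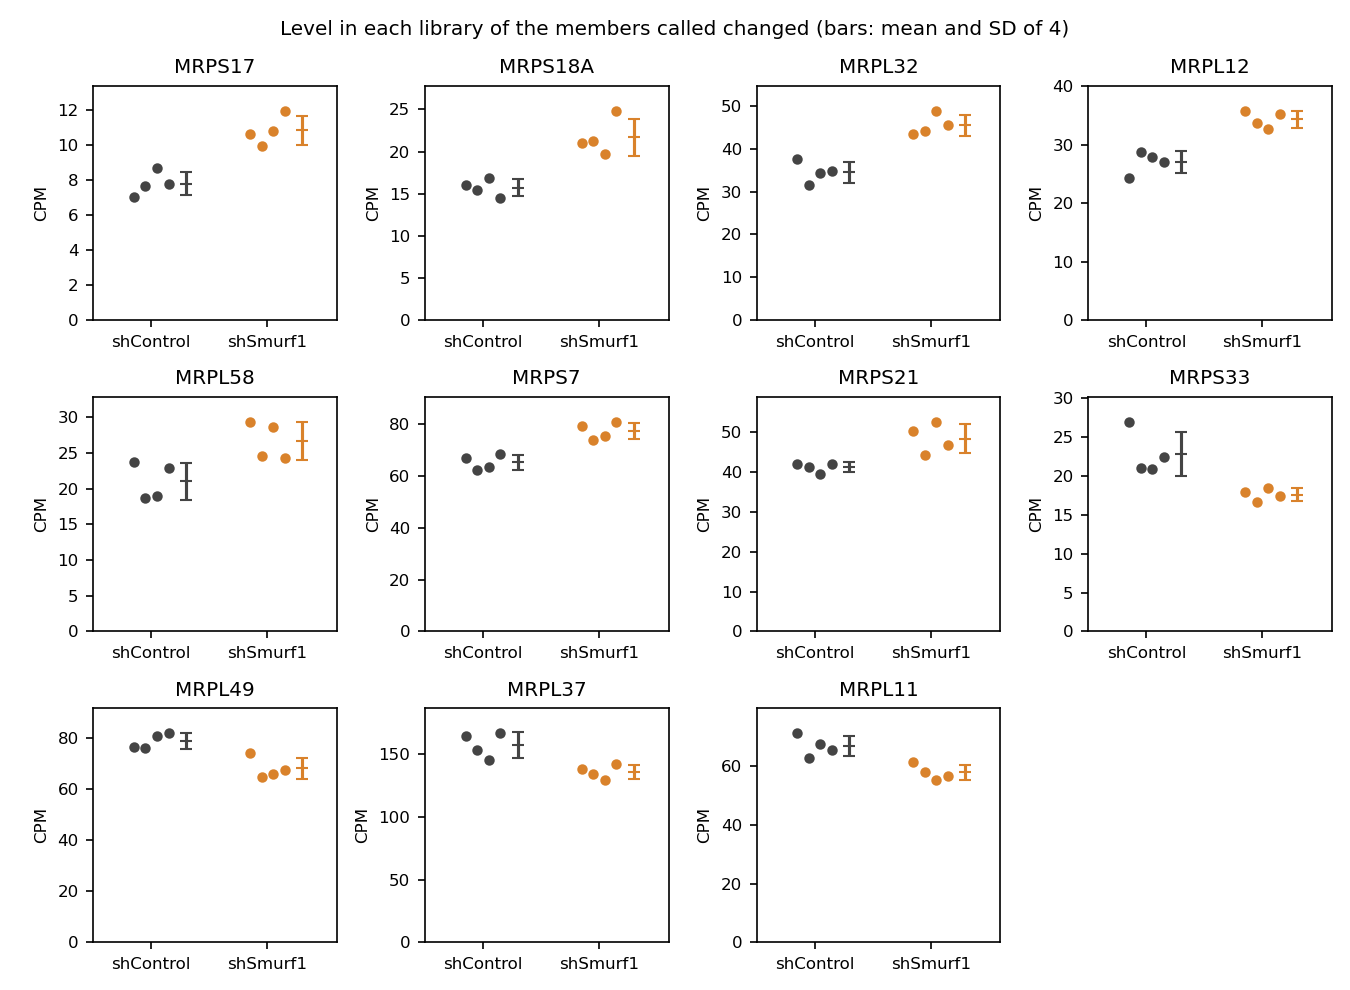
CPM of the 11 called MRP genes in each library, with replicates 1 to 4 from left to right within a group and the mean and SD of 4 beside them; each panel starts at 0. The 4 shSmurf1 points lie wholly above the shControl points in 7 panels and wholly below them in the 4 panels from MRPS33 on.

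Expressed as a share of the mean CPM in shControl, the called genes in shSmurf1 ranged from 77.1% (MRPS33) to 139% (MRPS17). The falls of MRPL49, MRPL37 and MRPL11 were to 86.4%, 86.4% and 86.6% of shControl. By name, 4 of 29 MRPS genes rose and 1 fell (17.2%), and 3 of 49 MRPL genes rose and 3 fell (12.2%), beside 22.5% of all genes. The difference between these counts was not tested.

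Levels within the family are compared per kb of annotated exon, as means over all 8 libraries. The lowest levels were those of MRPS24 (0.534 CPM per kb), MRPL46 (0.837), MRPL38 (0.944) and MRPS18C (1.92), and the median was 13.5 CPM per kb. The highest were MRPL14 (71.3 CPM per kb), MRPL51 (67.6), MRPL37 (57.4) and MRPS34 (56.6). The exon length counts every annotated isoform, so a gene with long rare isoforms reads low on this scale. MRPS24, MRPL46, MRPL38 and MRPS18C share 23.2%, 11.3%, 42.2% and 40.2% of their exon bases with other gene models. Among the highest genes MRPL51 and MRPL37 share 31.3% and 10.9%, and MRPL14 and MRPS34 share none. Reads in shared bases can be lost, and their part in these levels was not tested. The reads behind a gene ranged from a mean of 1.40 CPM for MRPS24 to 146.3 CPM for MRPL37, with a median of 34.0 CPM.

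MRPL14, MRPL51 and MRPS34 were not called. MRPL14, a protein that binds rRNA where the subunits meet, was at 70.3, 67.1, 65.5 and 64.3 CPM in shControl replicates 1 to 4 and 73.0, 68.8, 66.4 and 71.5 CPM in shSmurf1 replicates 1 to 4. MRPL51, a mitochondria-specific protein of the large subunit, was at 122, 95.6, 101 and 106 CPM in shControl replicates 1 to 4 and 109, 106, 94.5 and 104 CPM in shSmurf1 replicates 1 to 4, and the groups overlapped for both genes. MRPS16 and MRPS12, which with MRPL51 had the most reads among genes not called, code for bacterial-type proteins of the small subunit and had log2 fold changes of −0.0015 ± 0.0542 and 0.13 ± 0.0692. MRPS12, whose protein lies at the decoding centre, was called without shSmurf1 replicate 3 (0.20; edgeR adjusted p = 0.00147). It was not called with the GC trend removed, whether with all libraries (0.05; edgeR adjusted p = 0.457) or without that one (0.07; 0.256). Among the scarce genes, MRPL46 and MRPL38 had log2 fold changes of 0.35 ± 0.177 and 0.45 ± 0.214, neither of which was called (edgeR adjusted p = 0.178 and 0.143).

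The summed level of the family was nearly the same in both groups. The 78 genes together stood at 3335, 3054, 3086 and 3208 CPM in shControl replicates 1 to 4 and at 3327, 3155, 3285 and 3245 CPM in shSmurf1 replicates 1 to 4. The group means were 3171 ± 128 and 3253 ± 73.7 CPM (SD, n = 4 each), the ranges overlapped, and the ratio of the means was 1.03. The ratio was 1.01 for the 49 MRPL genes and 1.05 for the 29 MRPS genes. Summed MRPL over summed MRPS levels came to 1.76, 1.72, 1.68 and 1.70 in shControl and 1.64, 1.68, 1.62 and 1.66 in shSmurf1, so the lowest shControl and the highest shSmurf1 library met at 1.68.

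The mRNAs that these ribosomes translate stood higher in shSmurf1. The 13 mRNAs of mitochondrial DNA summed to 36910, 36110, 33790 and 35940 CPM in shControl and to 42590, 42120, 52430 and 43310 CPM in shSmurf1, a ratio of 1.26, with replicate 3 highest. The ratio without that library was not worked out. Each of the 13 was called higher by edgeR, with a median log2 fold change of 0.39, and DESeq2 called 11 and limma-voom 12 of them. All 13 were also called without shSmurf1 replicate 3. MT-ATP8 (0.68 ± 0.140), MT-ND3 (0.54 ± 0.125) and MT-CYB (0.49 ± 0.064) had the largest changes. The rRNAs of the same ribosomes rose as well, MT-RNR1 by 0.50 ± 0.095 and MT-RNR2 by 0.34 ± 0.073 on the log2 scale (SE; edgeR adjusted p = 0.000693 and 0.00169). The CPM values of the groups overlapped for MT-ND1 (edgeR adjusted p = 0.0498), MT-ND3 and MT-RNR1, and not for the other mitochondrial mRNAs or MT-RNR2. Polyadenylated RNA was selected, so the counts of these rRNAs also depend on their adenylation. Whether the mitochondrial transcripts and the MRP genes differed from each other in their change was not tested.

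**Figure D3:**
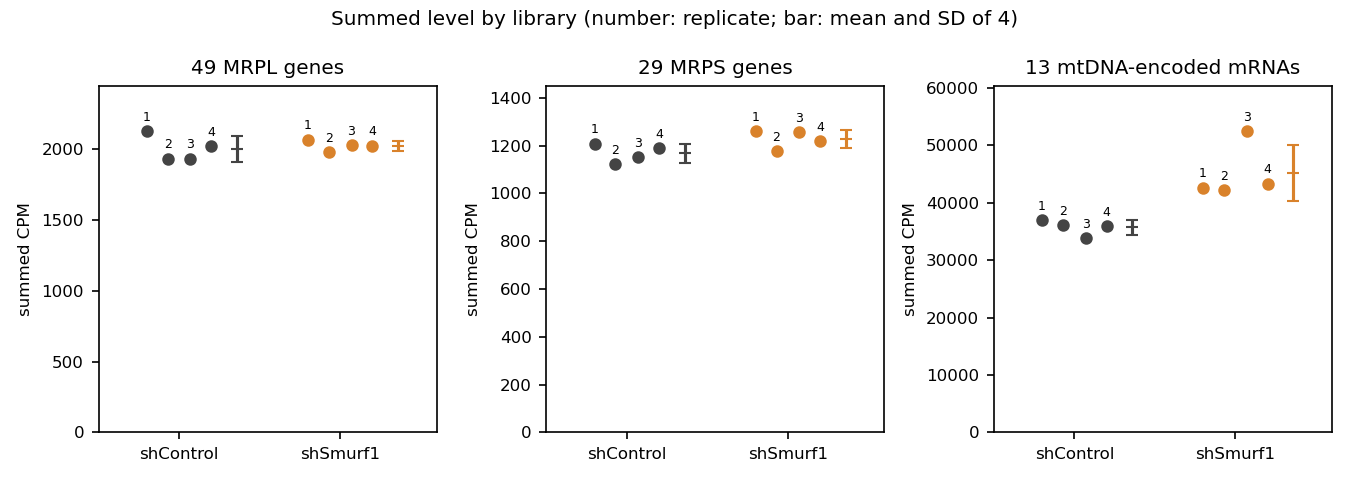
Summed CPM in each library of the 49 MRPL genes, the 29 MRPS genes and the 13 mRNAs of mitochondrial DNA, with replicate numbers above the points and bars of the mean and SD of 4; each axis starts at 0. The groups overlap in the MRPL and MRPS panels, and all 4 shSmurf1 points lie above shControl in the mitochondrial panel.

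Several of the called genes moved with the genes around them. For each MRP gene the neighbours were up to 20 expressed genes on each side along the chromosome, leaving out genes that share exon bases with it, and 74 of the 78 had all 40. The median log2 fold change of the neighbours was at least 0.2 in size for 8 MRP genes, and 6 of these were called: MRPL12, MRPL58, MRPS7, MRPL32, MRPS33 and MRPL37. The other 2 were MRPL38 and MRPS24. Of all genes tested 22.5% were called, and the share among all genes with such neighbours was not worked out. For the remaining 5 called genes it was at most 0.0753 in size. Across the 78 genes, change and neighbour median correlated at r = 0.60, given as a description, since genes close together share neighbours.

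On chromosome 17, MRPL12 was at 0.35 and its neighbours at 0.37, with 38 of 40 above 0 over 1.07 Mb. MRPS7 and MRPL58 lie near each other on the same chromosome and share 28 neighbours, with medians of 0.31 and 0.26. MRPL38 (neighbour median 0.33) shares 19 neighbours with MRPS7. On chromosome 7, MRPL32 and MRPS24 share 34 neighbours, with medians of 0.23 and 0.28, while MRPS33, far along the same chromosome, had neighbours at −0.28, of which 38 of 40 lay below 0. MRPL37 on chromosome 1 was at −0.21 among neighbours at −0.23, 35 of 40 below 0. The neighbours of MRPS17, MRPS18A, MRPS21, MRPL49 and MRPL11 had medians of 0.06, 0.07, 0.06, 0.04 and 0.08.

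With the median deviation of its neighbours removed from each gene in each library, 5 MRP genes were called higher and 3 lower, 10.3% of the 78 beside 19.4% of all genes. Of the 11 genes called before, 4 remained: MRPS17 (0.39; edgeR adjusted p = 0.0211), MRPS18A (0.40; 0.00226), MRPL49 (−0.18; 0.0301) and MRPL11 (−0.26; 0.00397). The share that remained of the earlier calls over all genes was not worked out. The neighbours leave out genes that share exon bases. Among those left out were NIPSNAP2 (0.20) for MRPS17, RSPH9 (0.68, not called) for MRPS18A, and FAU (−0.44) and SYVN1 (−0.35) for MRPL49, each moving as the MRP gene did. PELI3 (0.18, not called), left out for MRPL11, did not. MRPL12 came to 0.00 (edgeR adjusted p = 0.995), MRPL37 to 0.01 (0.951), MRPL58 to 0.04 (0.812), MRPS33 to −0.08 (0.605) and MRPS7 to −0.10 (0.198). MRPL32 came to 0.13 (edgeR adjusted p = 0.190) and MRPS21 to 0.17 (0.0877). The other 4 called in this fit were MRPL57 (0.25), MRPS23 (0.16) and MRPS27 (0.19), higher, and MRPL24 (−0.24), lower (edgeR adjusted p from 0.0197 to 0.0498), and they are named after their values were seen. SMURF1, also on chromosome 7, came to −0.52 in this fit.

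**Figure D4:**
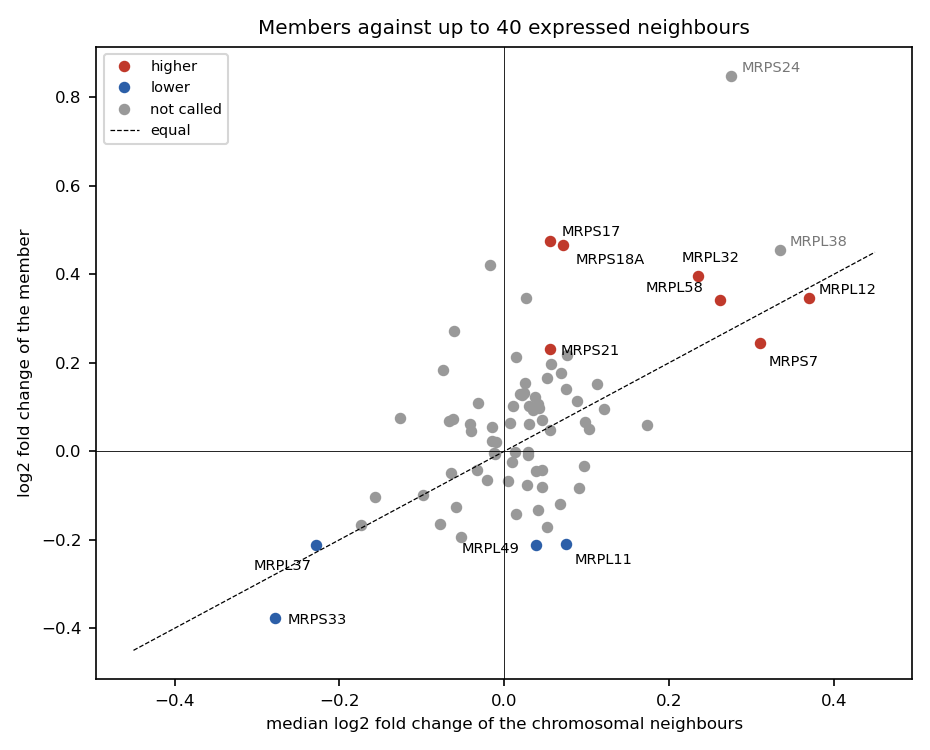
Log2 fold change of each MRP gene (vertical) against the median log2 fold change of up to 40 expressed chromosomal neighbours (horizontal); the dashed line marks equal values and colour marks the call. MRPL12, MRPS7, MRPL37 and MRPS33 lie near the line, and MRPS17 and MRPS18A lie well above it with neighbours near 0. Genes that share exon bases with the MRP gene are not among its neighbours.

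Many MRP genes share a start region with another gene. A gene on the opposite strand starts within 1000 bases of 29 of the 78, and for 28 a partner was tested, in 27 distinct pairs, since MRPL46 and MRPS11 are each other's partner. Of these 28 partners 7 were called (25%, beside 22.5% of all genes). Both genes of the pair were called in 3, each in the same direction: MRPL32 with the proteasome gene PSMA2 (starts 23 bases apart; PSMA2 0.62 ± 0.127, edgeR adjusted p = 0.00142), MRPL49 with FAU (290 bases; −0.44 ± 0.065, adjusted p = 4.92e-05) and MRPS7 with GGA3 (689 bases; 0.25 ± 0.054, adjusted p = 0.00188). FAU codes for a cytosolic ribosomal protein fused to a ubiquitin-like one, and GGA3 for a vesicle adaptor. PELI3, whose start lies 411 bases from that of the falling MRPL11, was at 0.18 and was not called (edgeR adjusted p = 0.178). MRPL46 and MRPS11 start 34 bases apart on opposite strands, and neither was called (0.35 and 0.06). These partners were chosen for naming after their values were seen.

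Exon bases are shared with another gene model over more than 10% of the exon length in 28 of the 78, and 6 of these were called (21.4%, beside 22.5% of all genes). Besides MRPS18A, MRPL49 and MRPS17, they were MRPL12 (68.2%, with a model on its own strand that had no count), MRPL37 (10.9%) and MRPS7 (10.8%). The genes on the opposite strand of MRPS7 were GGA3 and MIF4GD (log2 fold change 0.38), which rose as it did, and those of MRPL37 included SSBP3 (−0.32), which fell as it did. The part of such reads in the changes of these MRP genes was not tested.

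GC content moved with the shSmurf1 replicate 3 library. That library was the highest or lowest of the 4 shSmurf1 libraries for 56 of the 78 genes, against 30 to 36 for each of the others, and its difference from them correlated with GC content across the 78 genes at r = −0.58, a description across genes. The transcripts of MRP genes had a median GC content of 49.2%, as did all genes tested. Without shSmurf1 replicate 3, 14 MRP genes were higher and 7 lower (26.9%, beside 33.7% of all genes), all 11 earlier calls among them. The 7 added rises were MRPL28, MRPL41, MRPL43, MRPS5, MRPS12, MRPS26 and MRPS34, and the added falls were MRPL42, MRPS35 and MRPS36. With the GC trend removed in the same 7 libraries, MRPS5 (0.22; edgeR adjusted p = 0.00408) and MRPL42 (−0.18; 0.0324) were called and the other 8 were not. MRPL28, MRPL41, MRPL43, MRPS26 and MRPS34 then lay between −0.03 and 0.03, MRPS12 at 0.07, MRPS35 at −0.13 and MRPS36 at −0.20.

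With each library's trend with GC content removed, 15 MRP genes were higher and 4 lower (24.4%, beside 28.5% of all genes), again with all 11 among them. The 8 added rises were MRPL30, MRPL48, MRPL57, MRPS5, MRPS6, MRPS23, MRPS30 and MRPS31. MRPS5 was the gene added in both fits. With the GC trend removed and shSmurf1 replicate 3 left out, 13 were higher and 5 lower (23.1%, beside 28.1% of all genes), and 10 of the 11 remained, all but MRPL12 (0.17; edgeR adjusted p = 0.0867). The 40 genes with the higher GC content had a median log2 fold change of 0.10 with all libraries, 0.13 without that library and 0.03 with the GC trend removed, and the other 38 had medians of −0.0042, −0.03 and 0.05.

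**Figure D5:**
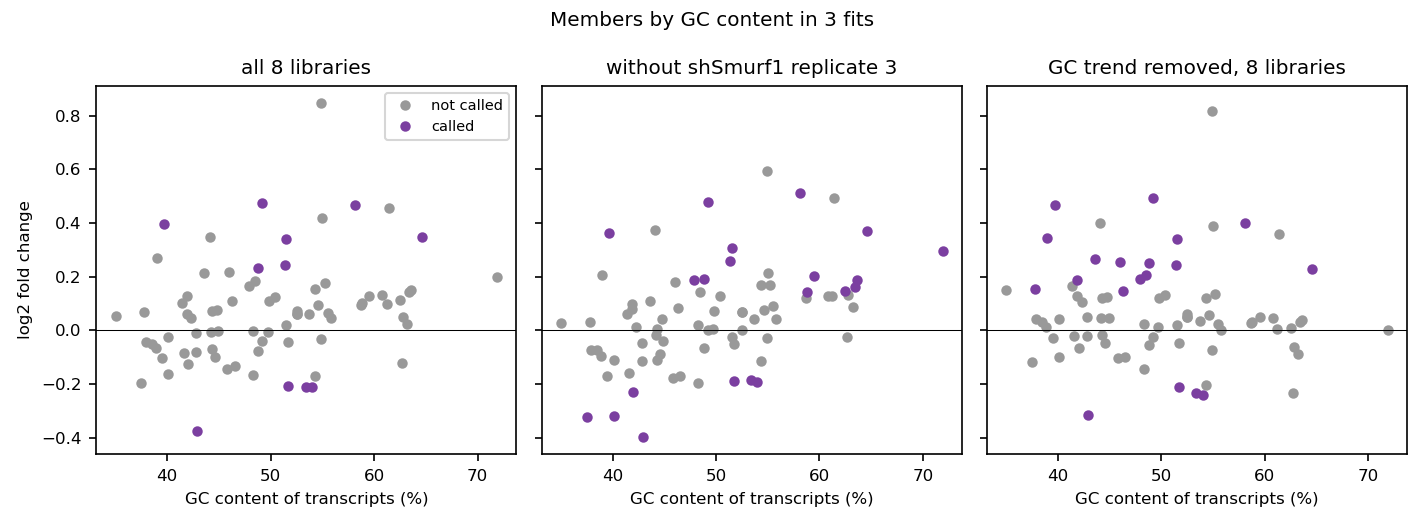
Log2 fold change of the 78 MRP genes against the GC content of their transcripts in percent, in the fit of all 8 libraries, without shSmurf1 replicate 3, and after removal of the trend with GC content; purple marks called genes. The upward slope is steepest in the middle panel (r = 0.44) and near 0 in the right panel (r = −0.05), against 0.28 in the left panel, as descriptions across genes.

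Other genes of mitochondrial translation were taken from lists by role. Beside the counts in these lists, 22.5% of all genes tested were called, 10.3% higher and 12.2% lower. Without shSmurf1 replicate 3, 33.7% of all genes were called. Of 5 mitoribosome subunits without an MRP name, CHCHD1 rose (0.21 ± 0.075, edgeR adjusted p = 0.0448, and 0.0575 without shSmurf1 replicate 3) and 4 were not called. Of 25 assembly factors, 2 fell, the GTPase GTPBP10 (−0.54 ± 0.115) and RCC1L (−0.27 ± 0.064), both on chromosome 7 and neither called once neighbours were removed (edgeR adjusted p = 0.285 and 0.919). None of the 25 was called higher by edgeR, DESeq2 or limma-voom, 3 were at an unadjusted p under 0.05, and 3 were called without shSmurf1 replicate 3. Of 16 translation factors, TSFM, an elongation factor, rose (0.41 ± 0.099) and GFM1, another, fell (−0.21 ± 0.069), and 14 were not called. Without shSmurf1 replicate 3 there were 2 rises and 3 falls, and with neighbours removed GFM1 came to 0.00.

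A list of 22 genes held aminoacyl-tRNA synthetases that serve mitochondria, with the amidotransferase genes QRSL1, GATB and GATC. Of these 22, 3 fell: CARS2 (−0.37 ± 0.063), GARS (−0.27 ± 0.049), which also serves the cytosol, and IARS2 (−0.15 ± 0.052, edgeR adjusted p = 0.0445). None was called higher by edgeR, DESeq2 or limma-voom, 1 was at an unadjusted p under 0.05, and without shSmurf1 replicate 3 there were 1 rise and 5 falls. Of 18 genes of mitochondrial DNA transcription and maintenance, TBRG4 (0.33 ± 0.051) and the polymerase gene POLG (0.24 ± 0.070) rose, SSBP1 (−0.24 ± 0.076) fell and 15 were not called, with 3 rises and 4 falls without shSmurf1 replicate 3. TBRG4 and SSBP1 lie on chromosome 7 and were not called with neighbours removed (edgeR adjusted p = 0.171 and 0.643). Of the regulators of mitochondrial biogenesis, 10 were tested. YY1, whose word stands in MRP promoters, rose (0.19 ± 0.052, edgeR adjusted p = 0.0121), and MYC (−0.32 ± 0.056) and PPRC1 (−0.15 ± 0.053) fell. For the ETS and NRF1 words, GABPA (−0.15 ± 0.074, edgeR adjusted p = 0.177) and NRF1 (−0.03 ± 0.077, edgeR adjusted p = 0.854) were not called. GABPA was called without shSmurf1 replicate 3 (edgeR adjusted p = 0.00394), and not with the GC trend removed in all libraries (−0.06, edgeR adjusted p = 0.437). The coactivator gene PPARGC1A had no count in any library. The calls of CHCHD1, GFM1, IARS2, POLG, SSBP1 and PPRC1 were each lost on leaving out any 1 of 4 to 7 of the libraries (edgeR adjusted p from 0.0518 to 0.157). Of the 21 MRP genes with the YY1 word in a promoter, MRPL32, MRPS18A and MRPS7 rose, MRPL49 fell and 17 were not called. The 4 are 19.0%, beside 22.5% of all genes. Of the 30 with the ETS word 4 were called (MRPL58, MRPS18A, MRPS21 and MRPS33), and of the 6 with the NRF1 word 1 was (MRPL32).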

How the data were processed

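The deposited table holds raw read counts per gene for 4 shControl and 4 shSmurf1 libraries, grouped by their labels. Per the labels' protocols, libraries were made from polyadenylated RNA with random hexamer primers, with no strand-marking step described. Per the submitters' processing notes, the authors used CASAVA, fastp, HISAT2 2.0.5 and featureCounts 1.5.0-p3 to make the counts. Genome build, annotation and strand setting were not given in the sources used here. All 58735 gene identifiers were found in GENCODE release 29 on GRCh38, which gave symbols, positions, exon lengths and GC content, and promoter sequences came from RefSeq on GRCh38.p14.

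Genes were kept by filterByExpr with a minimum count of 10, scaled by TMM and tested with edgeR 4.0.16 (R 4.3.3; quasi-likelihood F test, two-sided, no covariate), with Benjamini-Hochberg adjustment over 15647 genes and a threshold of 0.05. SE is the log2 fold change over the root of the F statistic. CPM is the count over the TMM-scaled library size. The test was run on simulated counts first. Totals of 14688651 to 17030394 counts set the sampling noise. Every pair of libraries within a group differed beyond that noise, which does not show that they came from separate cultures. Each library was counted once.

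Alternatives were DESeq2 size factors, library totals, DESeq2 1.42.0, limma-voom (limma 3.58.1), no low-count filter, a filter at 1 CPM in 4 libraries, a block for replicate number, removal of each library's lowess trend with GC content (span 0.3), and leaving out each library. Removal of the median deviation of up to 40 expressed neighbours (average log2 CPM of at least 1), and of the GC trend without shSmurf1 replicate 3, were added after seeing the data. Reads from the 75 MRP pseudogenes in the table (summed mean 4.40 CPM), paralogs and overlapping genes can be split or lost in such counts.

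The members, gene lists and tests were chosen with earlier results of these data known. Named genes were SMURF1, up to 10 called MRP genes in each direction, the 4 highest and 4 lowest per kb, the 3 with most reads among those not called, the pair nearest the threshold, the MRPS18 paralogs and up to 3 called genes per other list. Any other gene was named after its values were seen.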

Additional observations from a re-analysis of the deposited data

Results flagged for a closer look

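In 88 groups of 4 libraries, 4 had 1 library whose gap to the nearest other exceeded Dixon's critical value as a share of the group's range. Chance flags about 1 in 20 groups. MRPS34, of the small subunit, had its lowest shControl value in replicate 2, at 50.9 CPM against 61.1 to 62.0 CPM in the others. POLG was lowest in shSmurf1 replicate 3, at 65.7 CPM against 78.4 to 80.8 CPM. MT-CYB was highest in the same library, at 4720 CPM against 3680 to 3780 CPM. YY1 was highest in shControl replicate 4, at 87.6 CPM against 85.4 to 85.7 CPM.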

How the results depend on the processing

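The 7 rises and 4 falls were the same 11 genes with DESeq2 size factors, DESeq2, limma-voom and the replicate number as a block. Same-numbered libraries correlated at −0.067 to 0.032 in their deviations from the group means, which cannot show whether samples were prepared in pairs. The best match of the shSmurf1 library was the same-numbered shControl library for replicates 1 and 4, and the reverse held for replicate 4 only. The block for replicate number left 7 higher and 4 lower. With the GC trend removed 15 MRP genes were higher, 16 with the replicate block as well and 13 with shSmurf1 replicate 3 also left out. Leaving out 1 library gave 5 (without shControl replicate 3) to 14 (without shSmurf1 replicate 3) higher, and 3 to 7 (without shSmurf1 replicate 3) lower. The median log2 fold change stayed between 0.03 and 0.08 and the ratio of summed levels between 1.01 and 1.04 in the settings run.

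Over all 78 MRP genes the sign turned for 14 with neighbours removed (2 of them called, MRPS7 and MRPL37), 11 with the GC trend removed, 3 without shSmurf1 replicate 3 and 22 with both, none of them called in the full fit. Among the genes named by rule these turned. With neighbours removed, MRPS7 came to −0.099, MRPL37 to 0.0068, MRPL14 to −0.013, MRPS16 to 0.014, RCC1L to 0.011, GFM1 to 0.00098 and SSBP1 to 0.058. With the GC trend removed and shSmurf1 replicate 3 left out, MRPS34 came to −0.0031, MRPL51 to 0.022, MRPS18C to 0.038 and MRPS16 to 0.052. With the GC trend removed MRPS18C came to 0.014 and MRPS16 to 0.022, and with the replicate block too to 0.015 and 0.023. MRPS16 came to 0.00022 under the filter at 1 CPM and to 0.020 on library totals. Leaving out 1 library, MRPS16 ran from −0.034 to 0.026 and MRPL51 from −0.090 to 0.033. The causes were not tested. MRPS24 was called under the filter at 1 CPM (edgeR adjusted p = 0.0452) and on library totals (0.0475). The intervals of MRPL38, MRPL46, MRPL53 and MRPS24, among the 5 MRP genes with fewest reads, reached past a 1.5-fold change.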
